A study of Mus musculus with 7 samples.

Results

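The microRNAs mmu-miR-99a, mmu-miR-99b, mmu-miR-100, mmu-miR-125a-5p and mmu-miR-125b-5p, named here without the mouse prefix, were taken from the array files by their exact names. All 5 were present among 611 mouse microRNAs on the array, each as 2 different probes printed as 10 spots. They were measured on 1-colour Agilent microRNA arrays, 1 array per mouse, in whole kidneys of young male mice. The control group was 4 wild-type (mgb+/+) mice and the mutant group was 3 homozygous megabladder (mgb-/-) mice. Ages are given as 4 weeks per sample and as 3.5 to 4 weeks in the extraction protocol. The labels call the wild-type kidneys normal and the mutant kidneys obstructed. Megabladder is a mutant line with defective bladder smooth muscle, which leads to a distended bladder and to dilated kidneys. The submitters' design counts 4 mutant animals, of which the one numbered 1 was not analysed here. The labels number the mice and do not say whether any shared a litter or a day. Whole kidney RNA comes from all cells of the organ, so fewer cells of a type and less RNA per cell cannot be told apart.

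The miR-99 and miR-100 microRNAs are a small, deeply conserved family that is known to restrain genes of the mTOR growth pathway. miR-125 is the vertebrate counterpart of lin-4, the first microRNA described, and is known for roles in developmental timing, blood cells and the p53 pathway. In vertebrates a miR-99 or miR-100 gene, a let-7 gene and a miR-125 gene lie together in the genome, an arrangement that has been copied to several chromosomes. The let-7 family restrains growth and stem cell programmes. The names a and b mark paralogs, which are copies at different places in the genome.

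In the RefSeq annotation of GRCm38.p6, Mir99b, Mirlet7e and Mir125a lie side by side on chromosome 17 within the gene Spaca6, with 0 other annotated genes inside the cluster. Mir99a, Mirlet7c-1 and Mir125b-2 lie on chromosome 16, also with 0 other genes between them. Mir100, Mirlet7a-2 and Mir125b-1 lie on chromosome 9 within the noncoding gene Mir100hg, with 2 other annotated genes inside the cluster. miR-125b-5p has the same mature sequence from Mir125b-1 and Mir125b-2, so its signal cannot be divided between chromosomes 9 and 16. let-7a and let-7c also have genes outside these clusters. The array files name another mouse build, mm9, and no positions are given for that reason.

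The mature sequences are shown because they define the families and how far the paralogs can be told apart by hybridisation. They are RefSeq sequences of the GRCm38.p6 table, 5′ to 3′, with the seed (bases 2 to 8, the part that pairs with target messages) in capitals. All 5 members matched an entry, where the array's unsuffixed names were matched to the 5p arm.
miR-99a: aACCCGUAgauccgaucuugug
miR-100: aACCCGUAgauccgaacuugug
miR-99b: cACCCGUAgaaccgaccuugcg
miR-125b-5p: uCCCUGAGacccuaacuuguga
miR-125a-5p: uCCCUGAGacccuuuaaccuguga
let-7e: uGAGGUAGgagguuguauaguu
let-7c: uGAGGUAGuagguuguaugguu
let-7a: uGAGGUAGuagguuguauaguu

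The seed ACCCGUA belonged to 3 of 1679 mature entries, which are miR-99a, miR-99b and miR-100. Counted from 1 at the 5′ end, miR-99a and miR-100 differed by the single substitution U16A. miR-99a and miR-99b differed by 4, which were A1C, U11A, U16C and U21C. miR-100 and miR-99b also differed by 4, which were A1C, U11A, A16C and U21C. The miR-125 seed CCCUGAG belonged to 5 entries, among them miR-351-5p. miR-125a-5p has 24 bases and miR-125b-5p 22, and they share their first 13. let-7e differed from let-7a by U9G only in this alignment, and let-7c from let-7a by A19G. The array files hold no probe sequences, and how much of one paralog's signal comes from the other was not tested.

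The arrays shared 1 slide and 1 scan. Each genotype filled a row of its own on the slide, and the effects of row and genotype cannot be told apart. Each array had 190 to 210 mouse microRNAs above background. The scaling factor was 348.1 to 495.8 units on wild-type and 223.5 to 333.4 units on megabladder arrays, without overlap (exact permutation p = 0.0286, the smallest possible). Wild-type mice 3 and 4 stood apart: 17 microRNAs of repeat-rich families had a median level at the floor (3.52) there, and 5.35 to 5.92 on the other arrays. Results are therefore also given without these mice. The kidney tubule microRNAs miR-192, miR-194, miR-204, miR-30a and miR-30d were well above background and tested, 5 of 6 listed, and so were 5 of 5 listed for epithelium.

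All 10 probes of the 5 members were well above background on all 7 arrays. Levels are log2 of scaled scanner signal, averaged over the probes of a microRNA. Probes bind with different strength, so a level of miR-99a cannot be set against a level of miR-99b, and the paralogs are compared by their genotype difference. The standard error of a probe between its spots had a median of 0.020 to 0.038 log2 units by member. None of the 5 members passed limma's test at an adjusted p of 0.05 (lmFit and eBayes, Benjamini-Hochberg over 213 microRNAs), where 3.29% of all tested microRNAs did, 2.82% as higher and 0.469% as lower. An unadjusted p under 0.05 was reached by 0 of the 5 members, against 20.2% of all tested microRNAs as higher and 2.82% as lower. In none of the 5 did the genotypes stand apart without overlap, against 22.1% of all tested microRNAs, 18.8% as higher and 3.29% as lower. The shares as higher include microRNAs at the floor in all wild-type mice, such as miR-205, unlike the members. With only probes above background on all arrays, 28 of 163 microRNAs had an unadjusted p under 0.05 in limma, and 4 passed. The log2 difference, megabladder minus wild-type, was above 0 for 4 members and below 0 for 1, where 31.9% of all tested microRNAs lay below 0. Its median over the members was 0.13, beside 0.09 over all tested microRNAs.

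miR-99a, from the chromosome 16 cluster, had levels of 7.88, 7.96, 7.72 and 7.84 in wild-type mice 1 to 4. It had 7.77, 7.70 and 7.75 in megabladder mice 2, 3 and 4. The megabladder values lay in the lower part of the wild-type range and one of them below it. The means were 7.85 ± 0.10 (SD, n = 4) and 7.74 ± 0.04 (SD, n = 3), a log2 difference of -0.11 with a 95% interval of -0.33 to 0.10 (limma adjusted p = 0.558).

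miR-99b, its paralog on chromosome 17, had 5.47, 5.57, 5.22 and 5.18 in wild-type mice 1 to 4. It had 5.39, 5.83 and 5.54 in megabladder mice 2, 3 and 4. Megabladder mouse 3 was the highest of all 7 mice, and the other two megabladder mice lay within the wild-type range. The difference was 0.23 (interval -0.12 to 0.58, limma adjusted p = 0.455), and 0.11 without megabladder mouse 3.

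miR-100, from chromosome 9, had 5.22, 5.28, 4.94 and 4.96 in wild-type mice 1 to 4. It had 5.49, 5.48 and 5.23 in megabladder mice 2, 3 and 4. Megabladder mice 2 and 3 lay above all wild-type mice, while mouse 4 lay below wild-type mouse 2. The difference of 0.30 was the highest among the members, with an interval of -0.0060 to 0.60 and an adjusted p of 0.224 in limma.

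miR-125a-5p, the neighbour of miR-99b, had 6.64, 6.77, 6.38 and 6.38 in wild-type mice 1 to 4. It had 6.54, 6.95 and 6.51 in megabladder mice 2, 3 and 4. As for miR-99b, megabladder mouse 3 was the highest of all mice and the others lay within the wild-type range. The difference was 0.13 (interval -0.24 to 0.49, limma adjusted p = 0.728), and it was -0.015 without megabladder mouse 3.

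miR-125b-5p had 8.87, 8.81, 8.58 and 8.65 in wild-type mice 1 to 4. It had 8.86, 8.77 and 8.68 in megabladder mice 2, 3 and 4. All 3 megabladder values lay inside the wild-type range. The difference was 0.04 (interval -0.20 to 0.29, limma adjusted p = 0.889), and -0.0047 without wild-type mouse 3.

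**Figure D1:**
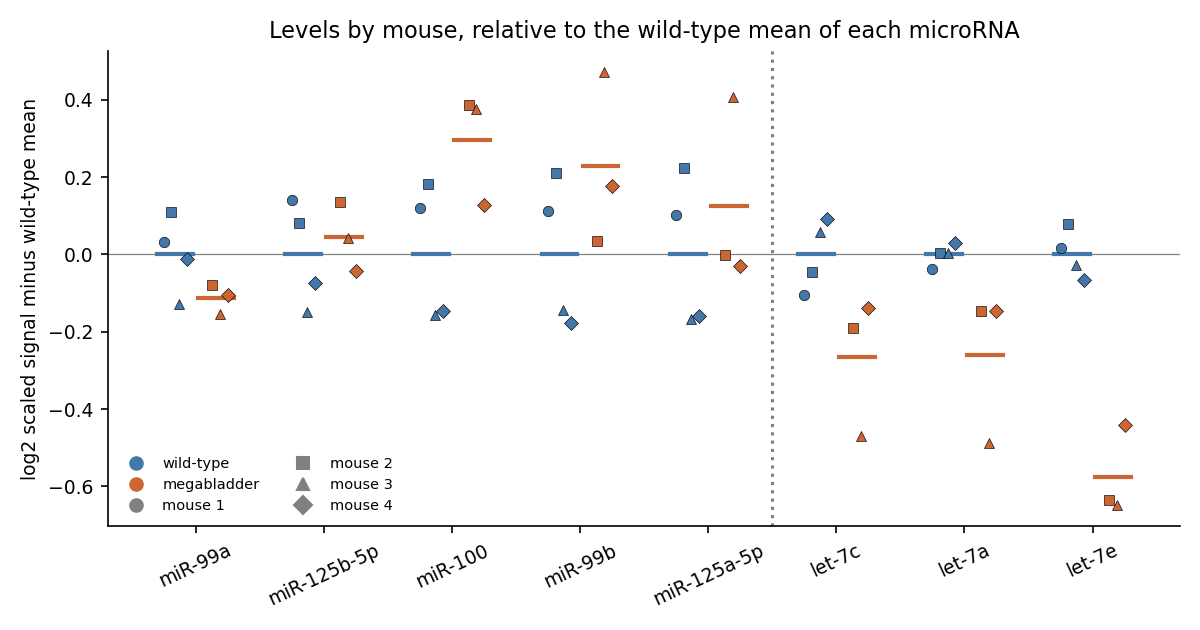
Levels of the 5 members and of the let-7 microRNAs of their clusters, as log2 scaled signal minus the wild-type mean of the same microRNA. Each symbol is 1 mouse (4 wild-type, 3 megabladder), short bars are genotype means, and the dotted line parts the members from let-7. The genotypes overlap for all 5 members, while let-7e lies at -0.65 to -0.44 in megabladder mice.

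Among the wild-type mice, all 5 members were higher in mice 1 and 2 than in mice 3 and 4. That order was found in 44.1% of all 213 tested microRNAs and in 4 of 9 let-7 guide strands, and 4 other let-7 strands had the opposite order. Without wild-type mice 3 and 4 the differences were -0.18 for miR-99a, 0.07 for miR-99b, 0.15 for miR-100, -0.037 for miR-125a-5p and -0.067 for miR-125b-5p. None passed, and those of miR-125a-5p and miR-125b-5p were thus below 0.

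Of the 3 let-7 microRNAs of the clusters, only let-7e passed, as lower. let-7e, which lies between miR-99b and miR-125a on chromosome 17, had 8.28, 8.34, 8.24 and 8.20 in wild-type mice 1 to 4. It had 7.63, 7.61 and 7.82 in megabladder mice 2, 3 and 4. All megabladder values lay below all wild-type values, a difference of -0.57 (interval -0.79 to -0.36, limma adjusted p = 0.0315). The direction held in 23 of 23 alternatives and the call was lost in 13 of them (adjusted p 0.00523 to 0.262). let-7e was the only microRNA called lower among the 213, a share of 0.469%. This was already known from an earlier analysis of these arrays. miR-709 had a lower difference (-0.81) and did not pass. let-7c had -0.27 and let-7a -0.26, each with an adjusted p of 0.214 in limma. In both, all megabladder values also lay below all wild-type values, as in 3.29% of tested microRNAs. Among the other 6 let-7 guide strands, none passed and 5 had a difference below 0, with let-7i the exception at 0.18. Of these 6, let-7f (-0.30) also had all megabladder values below all wild-type values. That separation is thus not particular to the let-7 microRNAs of the clusters.

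The members were then compared with each other and with let-7 inside each array. The log2 signal of a second microRNA was subtracted from that of the first on the same array, which removes any factor shared by all probes of an array. The genotypes were compared by a 2-sided exact permutation test over 35 splits of the mice. Here 12 such contrasts were made, with Benjamini-Hochberg adjustment over the 12. The smallest p possible is 0.0286, so an adjusted p under 0.05 needs 7 contrasts at that smallest p, and 7 reached it (adjusted p = 0.0490 each). Of these 7, 2 are the contrasts with let-7e, whose fall was known when the 12 were chosen. Without those 2, the other 5 of 10 at the smallest p have an exact permutation adjusted p of 0.0571 and none passes, so the call of each of the 5 depends on them. The 12 share microRNAs and arrays and are not independent of each other. No share over other pairs of microRNAs is given here, so 7 of 12 cannot be read as particular to this family. Of single microRNAs, 22.1% had no overlap between the genotypes. The size of a contrast shows unequal change, not which partner moved.

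On chromosome 17, both members rose relative to let-7e. Relative to its wild-type mean, the contrast of miR-99b with let-7e was 0.10, 0.13, -0.12 and -0.11 in wild-type mice 1 to 4. It was 0.67, 1.12 and 0.62 in megabladder mice 2, 3 and 4, all above all wild-type values. The difference was 0.80 log2 units, or 1.74-fold, with an SD of 0.13 in wild-type (n = 4) and 0.27 in megabladder mice (n = 3). The contrast of miR-125a-5p with let-7e was -0.14 to 0.15 in wild-type mice. It was 0.63, 1.05 and 0.41 in megabladder mice 2, 3 and 4, a difference of 0.70 or 1.62-fold, again with no overlap. Without wild-type mice 3 and 4 the differences were 0.69 and 0.58, and without megabladder mouse 3 they were 0.64 and 0.52. Because let-7e had been seen to fall, these contrasts are no independent evidence of its fall. They show that its neighbours did not move with it by the same amount. let-7e lay at -0.66 log2 units relative to the median difference of all tested microRNAs. A contrast near that size with let-7e is thus not particular to its neighbours.

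Within the chromosome 17 pair itself, miR-99b and miR-125a-5p kept nearly the same distance in every wild-type mouse. Their contrast was 0.011, -0.014, 0.023 and -0.020 in wild-type mice 1 to 4, an SD of 0.021. It was 0.035, 0.064 and 0.21 in megabladder mice 2, 3 and 4. The gap between wild-type mouse 3 (0.023) and megabladder mouse 2 (0.035) was narrow. The difference was 0.10 with no overlap (exact permutation adjusted p = 0.0490). It was 0.10 without wild-type mice 3 and 4, 0.050 without megabladder mouse 4 and -0.054 with the brightest probe of each. The genotypes also overlapped with quantile normalization (-0.041), total gene signal (0.0097), normexp (0.096) and outlier spots kept (0.076).

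In the chromosome 9 cluster the contrast of miR-100 with let-7a was higher in megabladder mice by 0.56, or 1.47-fold. That contrast was 0.16, 0.18, -0.16 and -0.17 in wild-type mice 1 to 4, and 0.53, 0.86 and 0.28 in megabladder mice 2, 3 and 4. The contrast of miR-100 with miR-125b-5p was higher by 0.25. The values were -0.021, 0.10, -0.0080 and -0.072 in wild-type mice 1 to 4 and 0.25, 0.33 and 0.17 in megabladder mice 2, 3 and 4. Both contrasts had no overlap and an exact permutation adjusted p of 0.0490, and without wild-type mice 3 and 4 they were 0.39 and 0.21. In the authors' deposited table they were 0.012 and -0.12, and with quantile normalization 0.0019 and -0.30, with overlap in both. With the brightest probe (0.33 and 0.060) and with total gene signal (0.43 and 0.14) the genotypes overlapped too. They also overlapped for the second contrast with normexp (0.32). let-7a and miR-125b-5p also come from other loci. let-7a itself lay at -0.35 log2 units relative to the median difference of all tested microRNAs, so a contrast near that size with it is not particular to miR-100.

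In the chromosome 16 cluster no contrast passed. miR-99a against let-7c differed by 0.15 (exact permutation adjusted p = 0.343), with megabladder values of 0.11, 0.32 and 0.033 against -0.19 to 0.15 in wild-type mice. It was 0.0085 without wild-type mice 3 and 4 and 0.072 without megabladder mouse 3. miR-125b-5p against let-7c differed by 0.31 (adjusted p = 0.190, exact permutation), and by 0.12 without wild-type mice 3 and 4. let-7c and miR-125b-5p also come from other loci. miR-99a against miR-125b-5p differed by -0.16 (adjusted p = 0.129, exact permutation), with megabladder mouse 4 inside the wild-type range, and by -0.12 without wild-type mice 3 and 4.

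Among the paralogs, the contrasts of miR-99a with both other members of its seed family were lower in megabladder mice. Its contrast with miR-99b was -0.081, -0.10, 0.015 and 0.17 in wild-type mice 1 to 4. It was -0.11, -0.63 and -0.28 in megabladder mice 2, 3 and 4, a difference of -0.34 with no overlap (exact permutation adjusted p = 0.0490). The gap between megabladder mouse 2 and wild-type mouse 2 was narrow, and without megabladder mouse 3 the difference was -0.20. The contrast of miR-99a with miR-100 was -0.090, -0.073, 0.029 and 0.13 in wild-type mice 1 to 4. It was -0.47, -0.53 and -0.23 in megabladder mice 2, 3 and 4, a difference of -0.41 with no overlap. These are the microRNAs that differ by 1 base. Without wild-type mice 3 and 4 the contrasts were -0.25 and -0.33. With quantile normalization the contrasts were -0.053 and -0.027, and with the brightest probe -0.26 and -0.19, each with overlap between the genotypes. With total gene signal the contrast with miR-99b was -0.30, also with overlap.

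No unequal change was found for the other paralogs. miR-100 against miR-99b differed by 0.069 (exact permutation adjusted p = 0.886), with 0.35 in megabladder mouse 2 and -0.095 and -0.050 in mice 3 and 4. In wild-type mice that contrast stayed within -0.029 to 0.033. miR-125b-5p against miR-125a-5p differed by -0.080 (adjusted p = 0.686, exact permutation), with 0.13, -0.36 and -0.013 in megabladder mice 2, 3 and 4. Without megabladder mouse 3 it was 0.061. With so few mice these p-values do not show that the paralogs act alike.

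**Figure D2:**
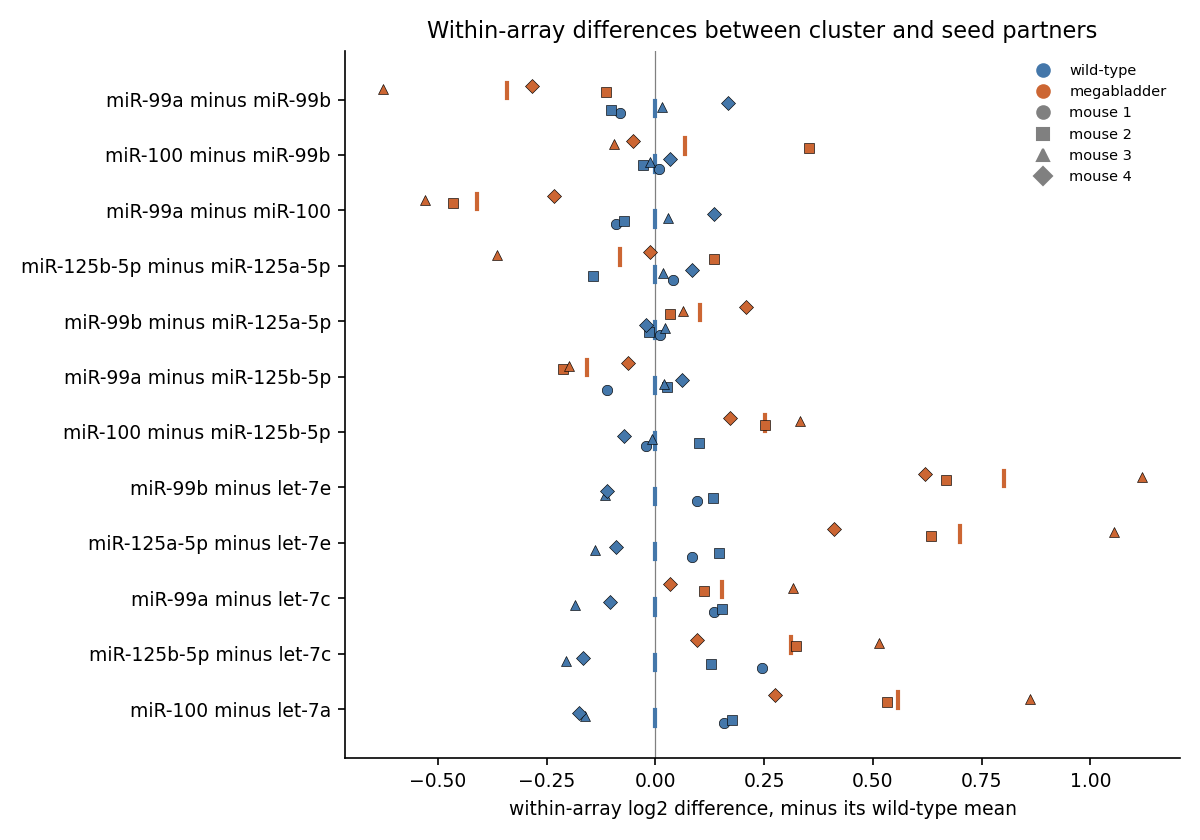
The 12 within-array contrasts, as the log2 difference between both microRNAs on an array minus the wild-type mean of that difference. Each symbol is 1 mouse and short bars are genotype means. The contrasts of miR-99b and miR-125a-5p with let-7e hold the highest megabladder values, 1.12 and 1.05 in mouse 3. No overlap is seen in 7 of 12 contrasts, without a share over other pairs to read it against.

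The probes of a member did not always give the same size. For miR-100 the dimmer probe, at a mean of 19.6 units, differed by 0.47 between genotypes and the brighter, at 73.2 units, by 0.12. For miR-125a-5p the dimmer probe (45.0 units) differed by -0.00059 and the brighter (212.5 units) by 0.25. In the same order, dimmer then brighter, the probes of miR-99b gave 0.26 and 0.20. Those of miR-125b-5p gave 0.025 and 0.064, and those of miR-99a -0.16 and -0.062. let-7e had -0.64 and -0.51. The dimmer probe of miR-100 lay nearest to the floor of 11.5 units, and its groups did not overlap (4.38 to 4.64 against 3.90 to 4.28). The part of dimness in its value was not tested.

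**Figure D3:**
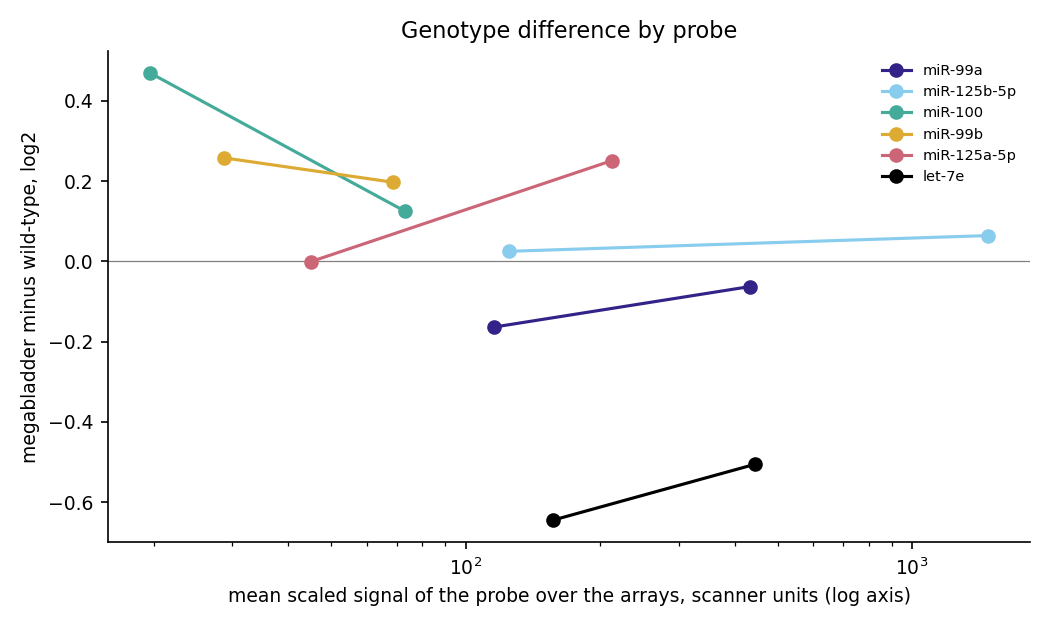
Genotype difference of each probe (megabladder minus wild-type, log2) against its mean scaled signal on a log axis, with a line joining the probes of 1 microRNA. The probes of miR-100 lie at 0.47 and 0.12, and those of let-7e at -0.64 and -0.51.

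The sign of most members' differences depended on how arrays were scaled. The median difference of all tested microRNAs was 0.09 in the main scaling, -0.058 with median scaling, -0.14 with quantile normalization, -0.50 unscaled and -0.62 with the 75th percentile of all probes. The 4 members above 0 were all below 0 unscaled and with all probes, and miR-99a was below 0 by all 5 scalings (-0.85 to -0.11). Unscaled, miR-99a was at -0.73 and passed in limma (adjusted p = 0.0347, range over its alternatives 0.0347 to 0.988), where 69 of 213 microRNAs did. Relative to the median of all microRNAs, miR-99a lay at -0.23 to -0.053 over the 5 scalings, miR-99b at 0 to 0.14 and miR-125a-5p at 0.0096 to 0.041. miR-100 (-0.025 to 0.21) and miR-125b-5p (-0.071 to 0.27) changed sign. Scalings by 1 factor per array leave these relative values and the within-array contrasts as they are, but for signals at the floor. Quantile normalization does not.

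**Figure D4:**
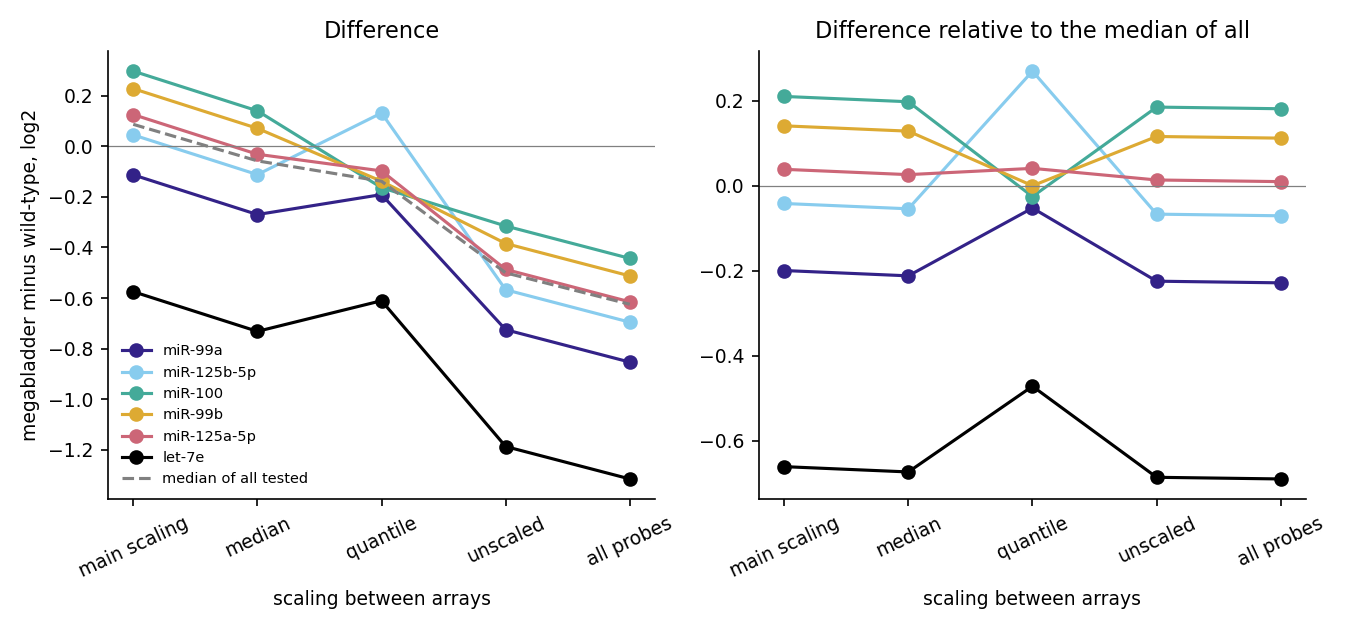
Difference between genotypes (megabladder minus wild-type, log2) of the 5 members and let-7e under 5 scalings between arrays, as computed (left) and minus the median of all tested microRNAs (right). Lines join values of 1 microRNA and the dashed line is the median of all. let-7e lies below the 5 members in every scaling, at -1.32 to -0.57 on the left.

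The likeness of profiles over the 7 mice was measured as the root mean square difference after each microRNA was centred on its own mean. It is a description over 7 arrays that share their scaling. For miR-99b the 3 nearest of 212 others were miR-322 (0.060 log2 units), let-7i (0.066) and miR-125a-5p (0.072), beside a median of 0.28 over all others. For miR-125a-5p they were let-7i (0.068), miR-99b (0.072) and miR-872 (0.073). miR-99b and miR-125a-5p were thus among each other's nearest, but let-7i was nearer to each of them. let-7e, which lies in their cluster, was not among the 3 nearest of either. miR-125b-5p was the 12th nearest to miR-99a at 0.10, behind let-7d (0.062), miR-200b (0.063) and miR-30e* (0.064). The seed partners of miR-99a lay near the middle of its list, with miR-100 in place 104 (0.23) and miR-99b in place 109 (0.23) of 212, beside a median of 0.23 over all others. miR-125b-5p had miR-340-3p (0.049), miR-27b (0.059) and miR-92a (0.066) nearest. miR-100 had miR-345-5p (0.082), miR-28 (0.090) and miR-652 (0.091).

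The relatives of the members were also looked at. miR-10a and miR-10b, whose seed ACCCUGU differs from that of miR-99, had differences of -0.10 and -0.11 and did not pass. miR-351, which shares the miR-125 seed, was well above background on 0 arrays (4 probes). Of 6 passenger arms of the clusters on the array, the strands that are usually degraded, none was tested. miR-125a-3p was above background on 1 array, and miR-99b*, miR-125b*, miR-125b-3p, let-7a* and let-7c-1* on 0. The arms opposite the members thus give no measure of the precursors.

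Marker microRNAs of other cells were read beside the members. Those of stromal cells, of the miR-199 and miR-214 cluster, had differences of 0.38 to 0.59 (4 of 4 tested, 0 passed). Their summed level was 8.14 to 8.57 in wild-type and 8.47 to 9.18 in megabladder mice. The summed level of the endothelial list (2 of 2 tested) was 10.62 to 10.68 in wild-type and 10.42 to 10.71 in megabladder mice. That of the smooth muscle list (2 of 5 tested, with miR-1, miR-133a and miR-133b not tested) was 7.24 to 7.58 and 7.38 to 7.70. The summed urothelial level (3 of 3 tested) was 5.89 to 6.01 in wild-type and 5.91 to 6.86 in megabladder mice. Its miR-205 was at the floor of 3.52 in all wild-type mice and at 4.22 to 5.62 in megabladder mice. The list did not move together: miR-203 differed by -0.17 and miR-31 by 0.44, each with overlap between the genotypes. The summed level of leukocytes (3 of 5) was 6.99 to 7.46 and 6.92 to 7.43, and that of erythroid cells (3 of 3) 11.06 to 11.46 and 10.94 to 11.87. In the summed levels the genotypes overlapped for each of these lists, no marker passed in limma (adjusted p under 0.05), and the part of these cells in the results was not tested.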

How the data were processed

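The authors read spot intensity from the scans (Agilent Feature Extraction 10.7.3.1, per the submitters' processing notes), from 100 ng of Cy3-labelled total RNA per the labels' protocols. Control spots and outlier spots (3.45% to 3.77%) were dropped, and 0 spots were saturated. Spots of a probe were averaged and scaled by each array's 75th percentile over the 292 probes above background on all 7 arrays. Signals were floored at 11.5 units and put on a log2 scale, where the deposited intensity values are linear. A microRNA's level is the mean over probes above background (at least 0.5 of spots) on 3 or more arrays, which left 213. Genotypes were compared with limma 3.58.1 in R 4.3.3, which was tested on simulated data, and contrasts by exact permutation. p-values measure the spread between these arrays, whose number limits the precision. Members, lists, contrasts, named partners (the 3 nearest profiles, let-7, passenger arms, seed relatives) and alternatives were chosen with earlier results of these data known. Normexp used the median spot signal. The authors' deposited value table (intensity, scaling method not given in the sources used here) served as an alternative for the 190 tested microRNAs before a shift in its rows. Mouse numbers were not used to pair the samples in the main setting. The deviations of same-numbered mice correlated at -0.21, 0.0066 and 0.21, and those of differently numbered mice at -0.29 to 0.32. With so few mice these values cannot show whether the numbers pair them. Mature sequences and neighbours come from RefSeq, GRCm38.p6. Figures were drawn with matplotlib 3.10.9.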

Additional observations from a re-analysis of the deposited data

How the results depend on the processing

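No member passed in limma in any alternative but 1, no scaling, where 1 member (miR-99a) passed. The count over all microRNAs was 7 in the main setting and moved to 69 with no scaling, 28 with the replicate block, 15 with the repeat-rich families left out, 4 with probes above background on all arrays and 2 with median scaling. It was 1 in the authors' deposited values and without wild-type mice 3 and 4. It was 0 with quantile normalization (45 at an unadjusted p under 0.05 in limma), all probes (107), total gene signal (26), normexp (35), no filter (40) and a floor of 1 (30). Leaving out 1 mouse gave 0 to 19, with 0 without wild-type mouse 1, 2 or 3 or megabladder mouse 2, and 19 without megabladder mouse 3. The count of 7 called contrasts was kept by 7 of 23 alternatives. These were median scaling, all probes and no scaling, which use 1 factor per array or none. The others were no filter, probes above background on all arrays, a floor of 1 and the repeat-rich families left out. The probes used here lay above floor and background on all 7 arrays, so these settings can hardly move the contrasts and say little of stability. The count was 0 with quantile normalization, total gene signal, normexp, the authors' deposited values, the brightest probe and outlier spots kept. It was also 0 with the 2 let-7e contrasts left out, chosen after seeing the data (smallest exact permutation adjusted p = 0.0571). The replicate block, the fit without wild-type mice 3 and 4 and leaving out any mouse gave 0 by construction and say nothing of stability. Their smallest possible p is 0.25, 0.10 and 0.067 to 0.10. Without wild-type mice 3 and 4, 7 of 12 contrasts had no overlap, and leaving out mice cannot make separate groups overlap. The contrasts of miR-99b and miR-125a-5p with let-7e had no overlap in 21 of 21 and 22 of 22 alternatives. They lay at 0.47 to 0.89 and 0.51 to 0.84. Scalings by 1 factor and the block leave overlap as it is, and leaving out mice cannot create it.

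Values that changed sign were as follows. With all probes, miR-99b was at -0.51, miR-100 at -0.44, miR-125a-5p at -0.61 and miR-125b-5p at -0.70. Unscaled, they were at -0.38, -0.32, -0.49 and -0.57. With median scaling, miR-125a-5p was at -0.032 and miR-125b-5p at -0.11. With quantile normalization, miR-99b was at -0.14, miR-100 at -0.16 and miR-125a-5p at -0.097. The contrasts there were -0.025 for miR-100 with miR-99b, 0.23 for miR-125b-5p with miR-125a-5p, -0.041 for miR-99b with miR-125a-5p and -0.30 for miR-100 with miR-125b-5p. With normexp, miR-99a was at 0.0049 and the contrast of miR-100 with miR-99b at -0.031. That contrast was -0.019 with total gene signal and -0.073 both with the brightest probe and without megabladder mouse 2. In the authors' deposited table miR-100 was at -0.13, miR-125b-5p at -0.0073 and their contrast at -0.12. The brightest probe gave -0.054 for miR-99b with miR-125a-5p. Without wild-type mice 3 and 4, miR-125a-5p was at -0.037 and miR-125b-5p at -0.067. Leaving out 1 mouse gave -0.015 (megabladder mouse 3) to 0.20 for miR-125a-5p, and -0.0047 (wild-type mouse 3) to 0.092 for miR-125b-5p. It gave -0.19 to 0.061 (megabladder mouse 3) for miR-125b-5p with miR-125a-5p, and -0.073 (megabladder mouse 2) to 0.15 for miR-100 with miR-99b. The cause was not tested. With the replicate block, where wild-type mouse 1 has no partner, the 5 members stayed uncalled, at -0.10 to 0.34.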

Other observations

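The row named miR-99b in the authors' deposited table held a mean of 378.3 units, near the total gene signal of miR-99a on the same arrays (364.7 units) and far from that of miR-99b (64.0 units). The row named miR-99a held 141.9 units, where the signal of miR-98, the name before it in alphabetical order, was 130.3 units. From miR-669n on, 29 of 32 names above that table's floor lay within 1 log2 unit of the name before, and 18 within 1 unit of their own. All 241 names above the floor before that point lay within 1 unit of their own signal. A difference for miR-99a or miR-99b read from that table by its row names would therefore be that of another microRNA.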
